A study of Mus musculus with 4 samples.

Results

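The mitochondrial respiratory chain passes electrons from its entry points through complex III and cytochrome c to complex IV, and ATP synthase uses the proton gradient they build to make ATP. The genes described here are the nuclear genes of complex III, cytochrome c, complex IV with its assembly factors, and ATP synthase. They were found by symbol, as every row that begins with Uqcr, Cox and a digit, or Atp5, together with Cyc1, Cycs, Sco1, Sco2 and Surf1. This gave 53 of the 16051 genes in the table, of which 9 belong to complex III, 1 is cytochrome c, 14 are complex IV subunits, 12 are complex IV assembly factors and 17 belong to ATP synthase. The rule uses symbols and no measured value.

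3T3-L1 is a fibroblast line from mouse embryos of the NIH Swiss strain that forms adipocytes in culture. Differentiated cells received 100 μM risperidone, an antipsychotic that blocks dopamine and serotonin receptors, or its vehicle DMSO for 48 h, and each treatment gave 2 libraries of RNA pooled from 3 cultures. The labels call the controls untreated and mention retinas in the extraction step, whereas the methods name DMSO and no retina. Since cultures were pooled, every p-value here measures only the spread between pools. The libraries held 15883712 to 16374119 counts, and a count of 0 in them allows a level of up to 0.183 to 0.189 CPM, the count scaled to its library's total.

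The cell type was checked against marker genes. Of 10 adipocyte markers, 6 (Adipoq, Cidec, Lep, Retn, Cebpa and Plin1) stayed at or under 0.51 FPKM in every library, so these defining markers were nearly absent. The summed FPKM of the 10 markers was 422 and 475 with DMSO and 287 and 303 with risperidone, and Fabp4, the fatty acid binding protein of adipocytes, gave 130 and 169 FPKM against 59.5 and 71.2. Of 7 preadipocyte or fibroblast markers, 3 were higher and 2 were lower, beside 32.1% and 32.2% of all genes tested. Their summed FPKM was 1370.1 and 1343 with DMSO and 1668 and 1679.5 with risperidone. Of these sums Col1a1 alone held 380 and 368 with DMSO and 715 and 674 with risperidone. Dlk1, Thy1 and Col1a1 had log2 fold changes of 1.52, 1.05 and 0.99, and Col3a1 and Pdgfrb had -0.96 and -0.50. The part of these shifts in the results below was not tested. In bulk RNA, fewer cells of a type and less RNA per cell cannot be told apart. All 10 kidney markers were highest in risperidone replicate 2, where their summed FPKM was 188 against 1.68 to 2.65 in the other libraries, and the androgen-regulated kidney gene Kap alone gave 136. Results are therefore also given without that library. The summed FPKM of the retina markers was at most 1.28 and that of striated muscle markers at most 0.97 in any library.

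Complexes III and IV receive their electrons from complex I and complex II. Complex III, the cytochrome bc1 complex, moves electrons from ubiquinol to cytochrome c, and complex IV, cytochrome c oxidase, moves them to oxygen with the help of heme A and copper. ATP synthase couples a proton-driven ring in the membrane to a catalytic head in the matrix. Adipocytes raise their content of mitochondria as they differentiate. The mitochondrially encoded subunits of these complexes were not analysed here.

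Transcripts of the respiratory chain rose more often than they fell with risperidone. Of the 53 genes, 50 had a mean of at least 1 FPKM (fragments scaled by transcript length and library size) and were tested, and 31 were higher, 4 were lower and 15 did not pass an adjusted p of 0.05 (edgeR's quasi-likelihood test on the estimated counts, Benjamini-Hochberg over 10243 genes). Of all genes tested, 32.1% were higher and 32.2% were lower, against 62% and 8% of these 50. Their median log2 fold change was 0.21, beside 0.00 for all genes. The changes were small, from -0.60 for Sco2 to 0.86 for Cox7a2l, and the median difference between replicates of these 50 genes was 0.08 with DMSO and 0.09 with risperidone on the log2 scale.

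By group, complex III had 7 of 9 genes higher and 0 lower, and complex IV subunits had 9 of 11 higher and 1 lower. ATP synthase had 10 of 17 higher and 0 lower. Complex IV assembly factors were mixed, with 5 of 12 higher and 3 lower. The median log2 fold changes were 0.31, 0.38, 0.21 and -0.09 in that order. Without risperidone replicate 2, 30 of the 50 were higher and 6 were lower (all genes, 32.3% and 32.7%), with a median of 0.28. Without DMSO replicate 1, 22 were higher and 3 were lower (all genes, 26.0% and 26.6%), with a median of 0.20.

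**Figure D1:**
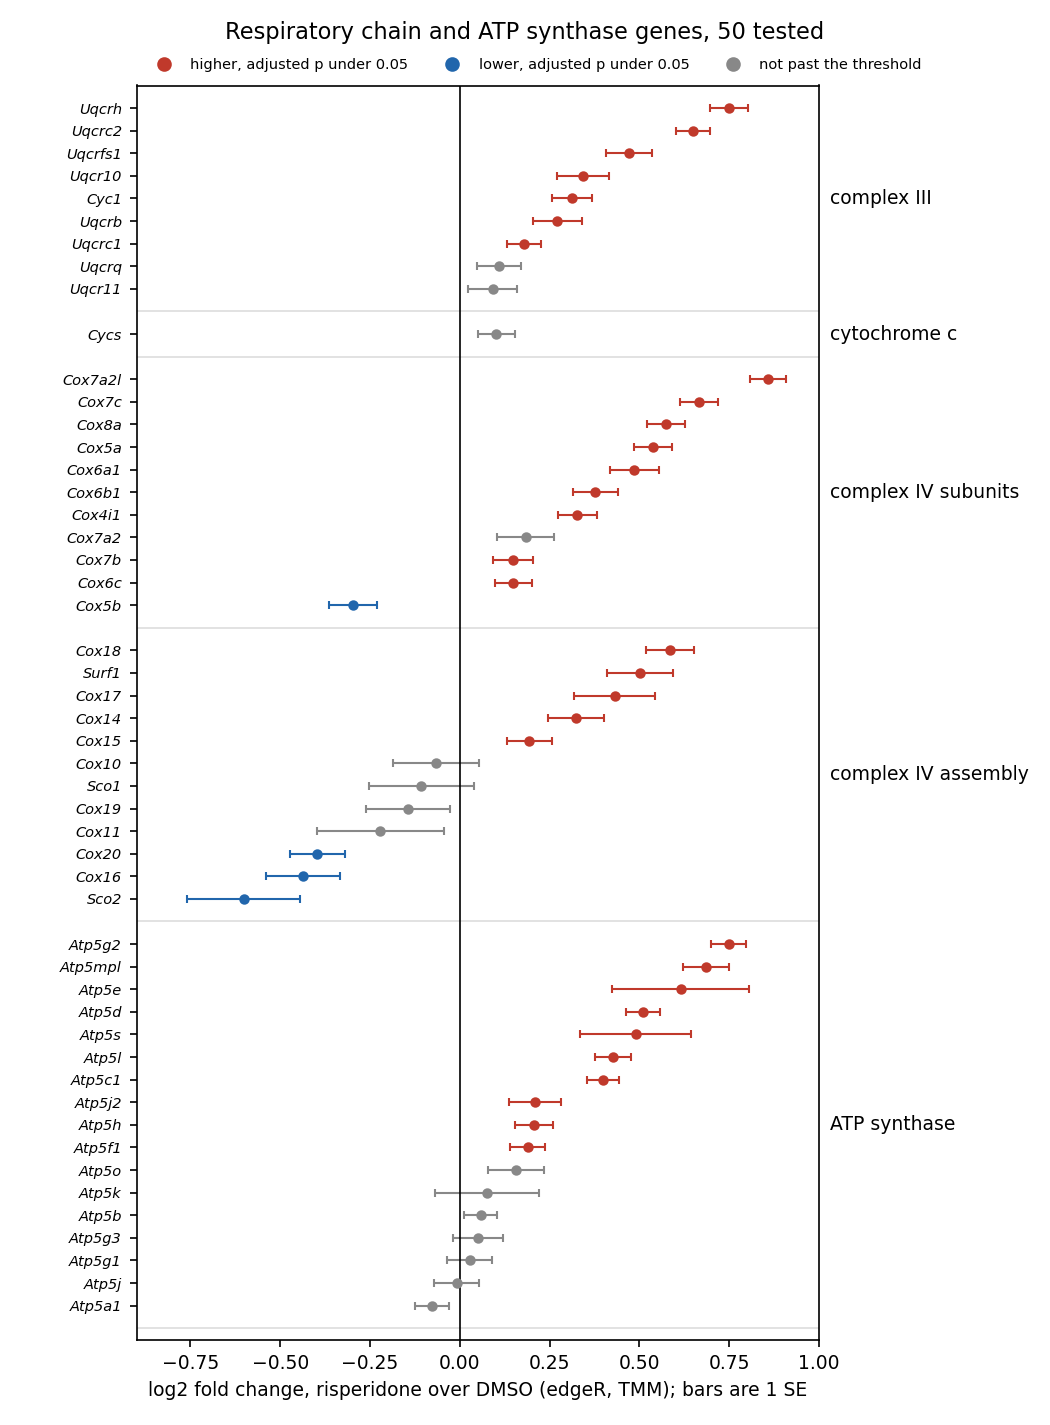
Log2 fold change of each of the 50 tested genes, risperidone over DMSO, on the x axis, with bars of 1 SE from edgeR, ordered within complex III, cytochrome c, complex IV subunits, complex IV assembly factors and ATP synthase. Red points were higher and blue points lower at an adjusted p under 0.05. The 4 blue points are Cox5b among the subunits and Cox20, Cox16 and Sco2 among the assembly factors.

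The count of higher genes depended on the scale. The deposited FPKM summed to 1.10 times more with risperidone than with DMSO, and scaling by library size in place of TMM (trimmed mean of M values) moved the median of all genes to -0.09, with 24 of the 50 higher and 5 lower (all genes, 24.4% and 39.9%). On log2(FPKM + 1), 23 were higher and 6 lower (all genes, 23.6% and 38.8%). On log2(TPM + 1), where the median of all genes was -0.22, 16 were higher and 12 were lower (all genes, 15.0% and 51.7%), and the median of the 50 was -0.04. With offsets for transcript length and GC content, 21 were higher and 9 were lower (all genes, 33.5% and 32.1%), with a median of 0.09. DESeq2 gave 27 higher and 4 lower (all genes, 25.8% and 25.9%), and a limit of 0.2 on the log2 fold change gave 26 and 4 (all genes, 28.3% and 29.1%).

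The transcripts of these genes are short. Their median length, as given by the deposited counts and FPKM, was 625 bases against 2716 for all genes tested. Across 10151 genes the log2 fold change and the length had a Spearman's rho of -0.17, and across the 50 it was -0.25, as a description, since genes of a library share its fragment sizes. Of the 210 genes under 500 bases, 52.4% were higher and 15.2% were lower, with a median of 0.28. The 19 of the 50 that fall in that class had 14 higher, 2 lower and a median of 0.34.

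**Figure D2:**
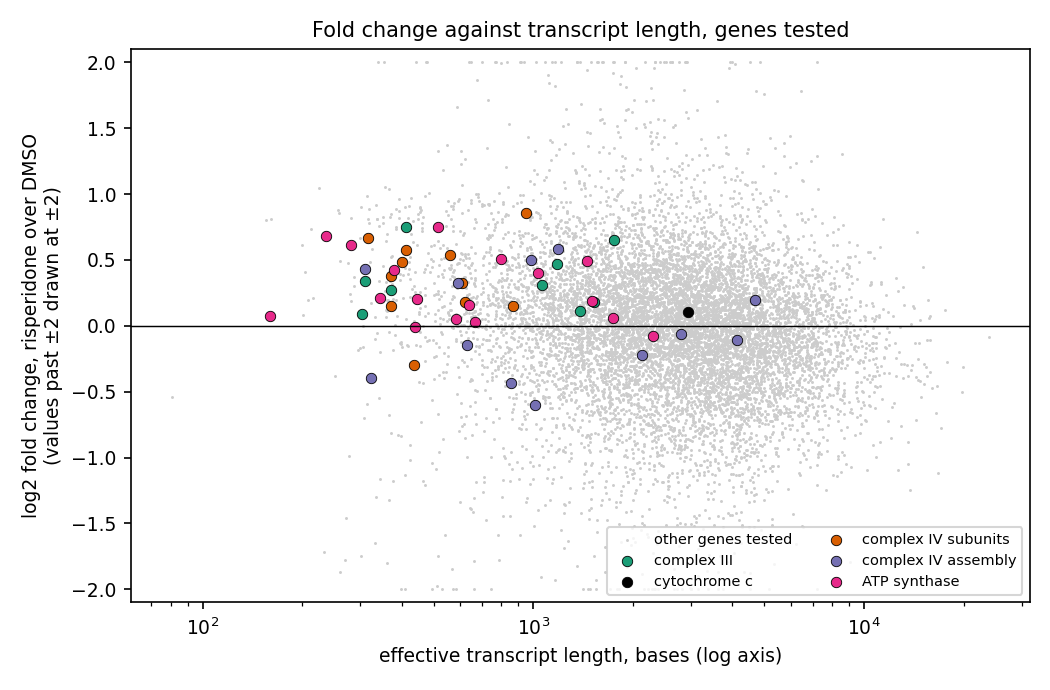
Log2 fold change, risperidone over DMSO, on the y axis against effective transcript length in bases on a log x axis, for the genes tested with a length (grey) and the 50 genes of the respiratory chain and ATP synthase (coloured by group). The coloured points sit mostly to the left of the grey ones, at a median of 625 bases against 2716, and mostly above 0.

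Under the main settings and 17 others, 14 of the 31 higher genes kept their call throughout. These were Uqcrh, Uqcrc2 and Uqcrfs1 of complex III, Cox7a2l, Cox7c, Cox5a and Cox6a1 of complex IV, the assembly factors Cox18 and Surf1, and Atp5g2, Atp5mpl, Atp5d, Atp5l and Atp5c1 of ATP synthase. Of the 4 lower genes, Cox20, Cox5b and Sco2 kept theirs, and Cox16 did not.

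**Figure D3:**
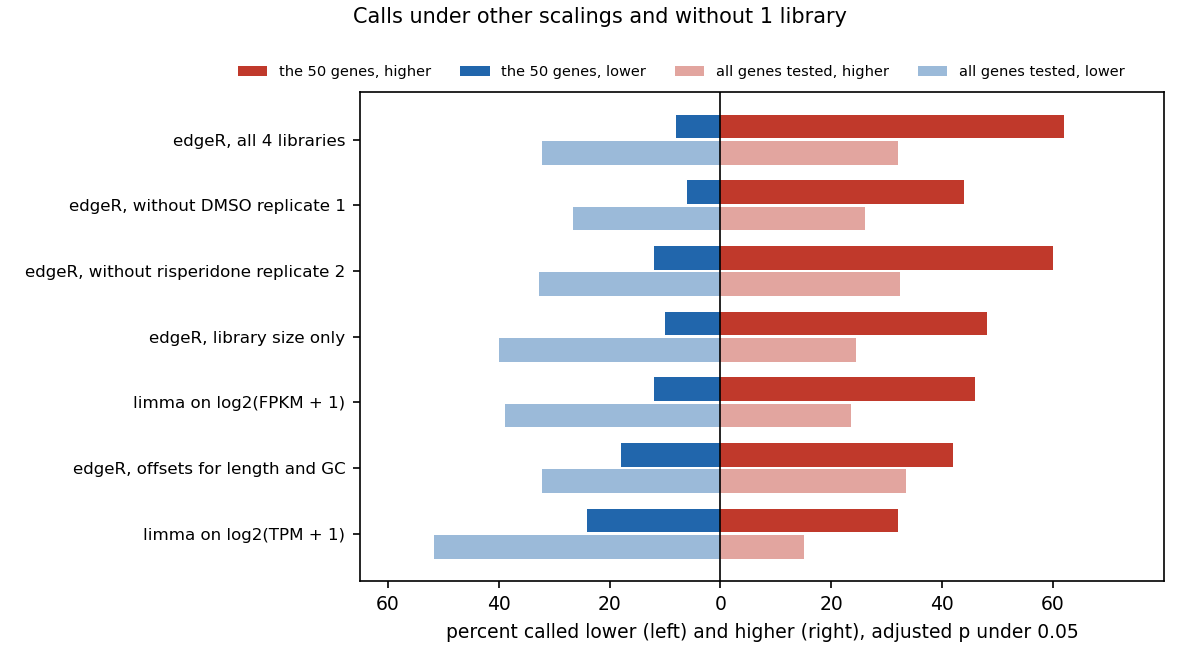
Percent of the 50 genes (dark bars) and of all genes tested (pale bars) called higher (to the right) and lower (to the left) at an adjusted p under 0.05 on the x axis, for 7 ways of scaling or leaving out a library. In each row the dark red bar is longer than the pale red bar, from 62% against 32.1% with all 4 libraries to 32% against 15.0% on log2(TPM + 1).

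The promoters of the gene with the largest change in each complex, and of Cox5b, the only lower gene of the 4 with whole counts, were read from RefSeq on GRCm38.p6. Each window is the 250 bases before the transcript's start, written 5′ to 3′ on the gene's strand, and windows were searched on both strands for GCGCATGC, which is part of the site of nuclear respiratory factor 1 (NRF-1), and for CCGGAAGT, a core bound by ETS factors such as GABP. NRF-1 and GABP are known regulators of nuclear genes for the respiratory chain. Capitals mark the matches.
Uqcrh (chr4:116075071-116075320, minus strand): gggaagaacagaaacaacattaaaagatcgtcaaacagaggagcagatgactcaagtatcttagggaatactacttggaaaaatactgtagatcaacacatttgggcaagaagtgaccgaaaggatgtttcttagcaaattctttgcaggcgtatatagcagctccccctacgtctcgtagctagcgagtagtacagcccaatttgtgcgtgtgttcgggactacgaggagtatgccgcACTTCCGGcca
Cox7a2l (chr17:83514334-83514583, minus strand): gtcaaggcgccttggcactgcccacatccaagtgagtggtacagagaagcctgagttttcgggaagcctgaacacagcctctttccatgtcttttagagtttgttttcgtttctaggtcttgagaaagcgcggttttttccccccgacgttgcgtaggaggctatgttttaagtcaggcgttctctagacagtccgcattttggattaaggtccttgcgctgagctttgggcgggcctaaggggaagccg
Atp5g2 (chr15:102671048-102671297, minus strand): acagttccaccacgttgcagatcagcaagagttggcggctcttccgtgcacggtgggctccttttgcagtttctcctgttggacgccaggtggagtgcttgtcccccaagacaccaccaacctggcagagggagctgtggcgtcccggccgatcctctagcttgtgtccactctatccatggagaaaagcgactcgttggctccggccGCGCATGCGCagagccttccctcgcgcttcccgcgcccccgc
Cox5b (chr1:36691237-36691486, plus strand): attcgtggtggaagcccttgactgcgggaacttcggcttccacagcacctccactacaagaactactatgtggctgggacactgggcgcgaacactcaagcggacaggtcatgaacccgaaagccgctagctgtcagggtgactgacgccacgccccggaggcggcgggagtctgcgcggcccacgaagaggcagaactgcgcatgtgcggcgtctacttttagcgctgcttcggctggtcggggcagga
In Uqcrh the ETS core lay on the opposite strand and began 11 bases before the start. In Atp5g2 the NRF-1 letters matched on both strands in an overlapping pair, at 42 and 40 bases before the start, so that the capitals form a palindrome. The windows of Cox7a2l and Cox5b held neither. Of 45 windows that belong to 41 of the 53 genes, 11.1% held GCGCATGC (Atp5g2, Atp5k, Atp5l, Cox6a1 and Cycs) and 11.1% held CCGGAAGT (Atp5h, Cox10, Cox16, Uqcr11 and Uqcrh). Among 10639 windows of tested genes the shares were 4.64% and 6.39%, and among all 32851 windows they were 2.26% and 2.88%. Of the genes with either motif, Atp5g2, Atp5h, Atp5l, Cox6a1 and Uqcrh were higher, Cox16 was lower, and Atp5k, Cox10, Cycs and Uqcr11 did not pass the test.

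Of the 9 complex III genes 7 were higher and 0 lower (all genes, 32.1% and 32.2%). With the offsets for length and GC content, 4 were higher and 1 lower (all genes, 33.5% and 32.1%). The largest change was that of Uqcrh, the hinge protein that helps cytochrome c1 meet cytochrome c. Uqcrh (Gene ID 66576, chr4:116066965-116075070) gave 191 and 196 FPKM with DMSO and 312 and 291 with risperidone. The libraries of the treatments did not overlap, and the log2 fold change was 0.75 ± 0.05 (SE, adjusted p = 5.86e-07).

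The core proteins Uqcrc1 and Uqcrc2 form the matrix face of the complex and changed unequally. Uqcrc2 (chr7:120635189-120659523) gave 63.2 and 66.4 FPKM with DMSO and 95.7 and 94.3 with risperidone, a log2 fold change of 0.65 ± 0.05 (adjusted p = 8.36e-07). Its counts were not whole, so some of its reads were shared with other transcripts, and it overlaps Pdzd9. Uqcrc1 gave 76.1 and 79.2 FPKM against 80.7 and 83.7, a log2 fold change of 0.18 ± 0.05 (adjusted p = 0.00704) that was -0.06 on log2(TPM + 1).

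Of the subunits that carry the redox centres, Uqcrfs1, the Rieske iron-sulfur protein, gave 49.7 and 50.9 FPKM with DMSO and 67.5 and 62.6 with risperidone (log2 fold change 0.47 ± 0.06, adjusted p = 8.36e-05). Cyc1, cytochrome c1, gave 76.4 and 79.4 FPKM against 92.1 and 88.5 (0.31 ± 0.05, adjusted p = 0.000483). Both were higher in each risperidone library than in each DMSO library, and the value of Cyc1 fell to 0.07 on log2(TPM + 1), where it no longer passed the test.

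The other small subunits were less uniform. Uqcr10 rose by 0.34 and Uqcrb, which lies near the ubiquinone site, by 0.27 on the log2 scale. Uqcrq and Uqcr11 had values of 0.11 and 0.09 and did not pass the test. With offsets for length and GC content Uqcr10 and Uqcrb came to 0.02 and 0.01, and Uqcr11 passed as lower at -0.24 (adjusted p = 0.0114). Uqcr11 also passed as lower on log2(TPM + 1) at -0.16 (adjusted p = 0.0387), where the median of all genes was -0.22. Without DMSO replicate 1 the calls of Uqcrb (0.20, adjusted p = 0.0865) and Uqcrc1 (0.15, adjusted p = 0.138) were lost, and without risperidone replicate 2 Uqcrq passed the test (0.17, adjusted p = 0.0183).

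Cytochrome c, the soluble carrier between complexes III and IV, is encoded by Cycs in somatic cells. It gave 37.3 and 40.3 FPKM with DMSO and 38.3 and 39.6 with risperidone. The treatments overlapped, and the log2 fold change of 0.10 ± 0.05 did not pass the test (adjusted p = 0.109). With the offsets it was 0.15 (adjusted p = 0.0102), and on log2(TPM + 1) it was -0.14 (adjusted p = 0.082).

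**Figure D4:**
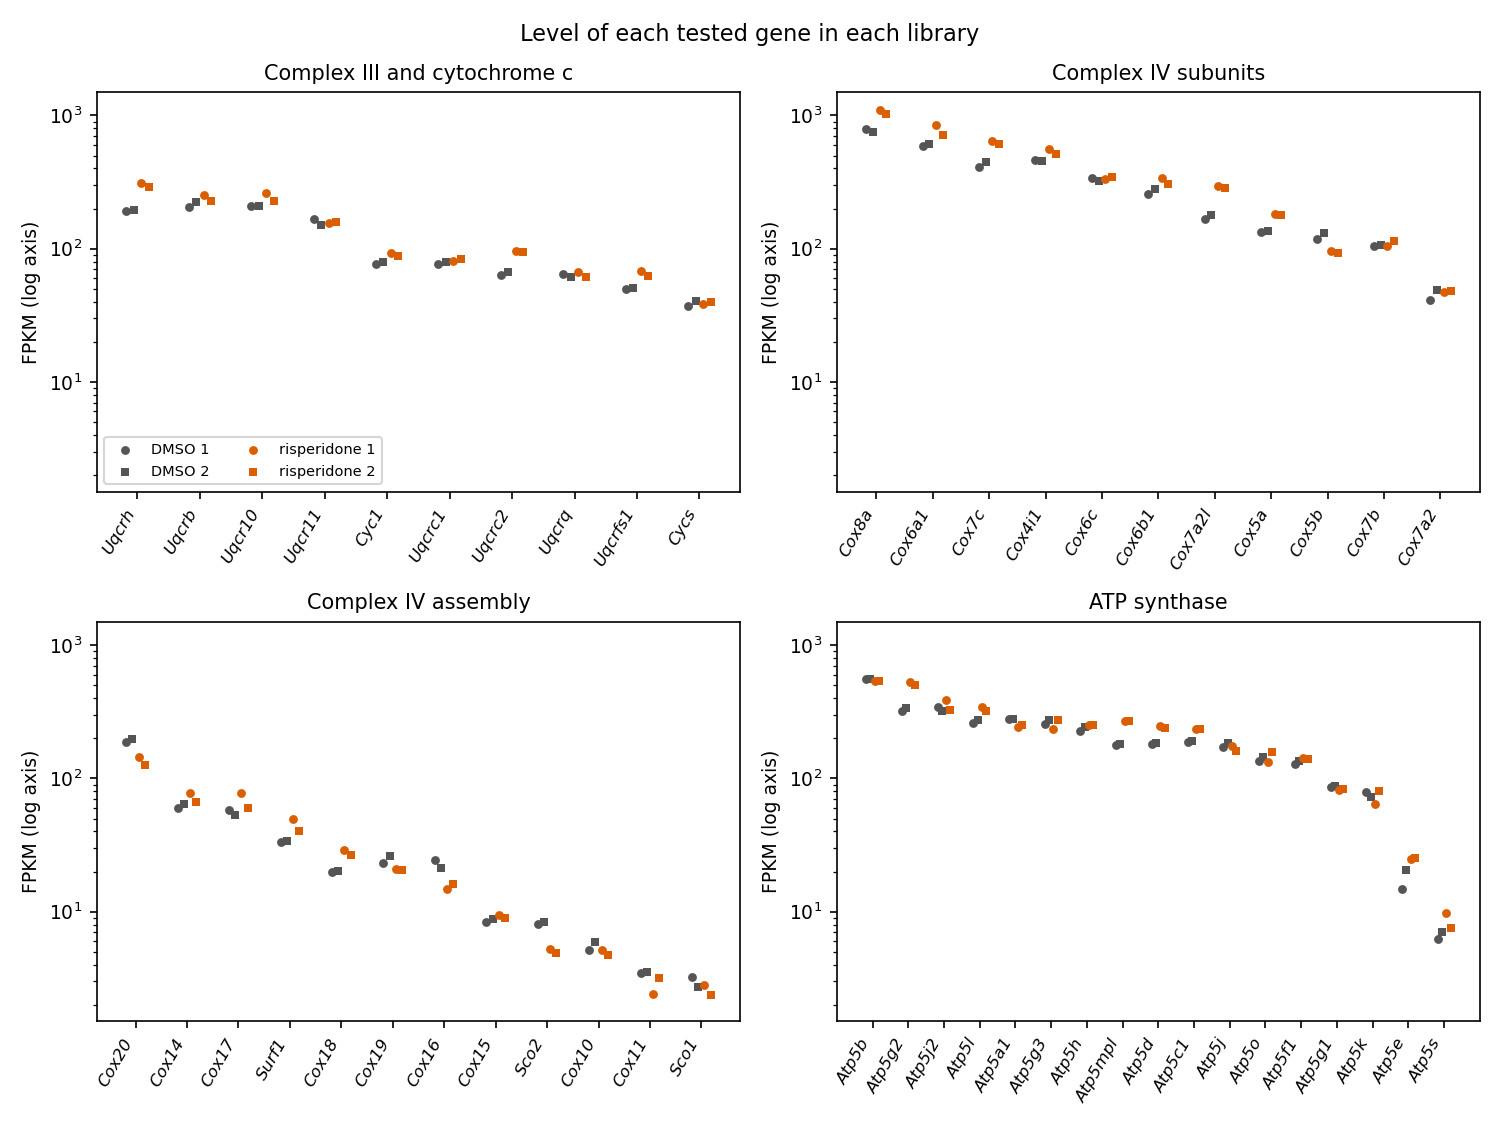
FPKM of each tested gene in each of the 4 libraries on a log y axis, in 4 panels for complex III with cytochrome c, complex IV subunits, complex IV assembly factors and ATP synthase, with genes ordered by their mean. Grey marks are DMSO and orange marks risperidone, with circles for replicate 1 and squares for replicate 2. Cox8a is the highest of all, at 794 and 757 FPKM with DMSO and Sco1 the lowest, at 3.23 and 2.72.

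Among complex IV subunits, most of the nuclear genes rose and Cox5b fell. The largest change of all 50 was that of Cox7a2l (Gene ID 20463, chr17:83501917-83514333), whose protein joins complex III to complex IV in a supercomplex. It gave 167 and 178 FPKM with DMSO and 296 and 286 with risperidone, a log2 fold change of 0.86 ± 0.05 (adjusted p = 1.81e-07). The risperidone libraries lay close together and well above those of DMSO.

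Cox7c (chr13:86044798-86046795), a small membrane subunit, gave 408 and 446 FPKM with DMSO and 639 and 612 with risperidone (0.67 ± 0.05, adjusted p = 1.56e-06). Cox8a (chr19:7215158-7217616), another membrane subunit and the highest of these genes per length, gave 794 and 757 FPKM against 1106 and 1034 (0.57 ± 0.05, adjusted p = 3.71e-06). After quantile normalization of log values the change of Cox8a was 0.07 (adjusted p = 0.193), whereas that of Cox7c passed under every setting.

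The subunits on the matrix side moved in opposite directions. Cox5a gave 132 and 137 FPKM with DMSO and 183 and 179.9 with risperidone, a log2 fold change of 0.54 ± 0.05 (adjusted p = 7.79e-06). Cox5b (Gene ID 12859, chr1:36691487-36693388), which binds zinc, gave 119 and 131 FPKM with DMSO and 95.4 and 93.0 with risperidone, and fell by 0.30 ± 0.07 on the log2 scale (adjusted p = 0.0026). Neither gene's treatments overlapped, and both calls held under every setting and without any library.

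Several subunits exist as a common form and as a form typical of muscle, lung or brown fat. Cox4i1, Cox6a1 and Cox7a2, the common forms, held at least 96.3% of their family's FPKM in every library, and Cox4i1 and Cox6a1 at least 99.9%. Cox4i2 had 2 and 1 counts with DMSO and 0 and 2 with risperidone, Cox6a2 had 0 and 3 against 1 and 1, and Cox7a1 had 6 and 5 against 0 and 2. All 3 had a mean under 1 FPKM. Without that limit none passed the test, with an adjusted p of 0.846, 0.852 and 0.212 in that order. Cox6b2 and Cox8b were not analysed here.

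Of the common forms, Cox6a1 gave 594 and 606 FPKM with DMSO and 844 and 713 with risperidone (0.49 ± 0.07, adjusted p = 9.56e-05). Cox4i1 gave 463 and 455 FPKM against 560.2 and 509.7 (0.33 ± 0.05, adjusted p = 0.000307). Cox7a2 gave 41.2 and 48.7 FPKM against 47.0 and 47.9 and did not pass the test (0.18 ± 0.08, adjusted p = 0.0639), and without DMSO replicate 2 it did (0.31, adjusted p = 0.00926). Cox4i1 did not pass on log2(TPM + 1), at 0.08.

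Cox6b1, which faces the intermembrane space, rose by 0.38, and Cox6c and Cox7b by 0.15 each, on the log2 scale. The calls of Cox6c and Cox7b were not stable. Without DMSO replicate 1, DMSO replicate 2 or risperidone replicate 2 in turn, Cox6c had 0.19, 0.11 and 0.12 (adjusted p = 0.0597, 0.309 and 0.0762). Cox7b had 0.14, 0.16 and 0.10 (adjusted p = 0.24, 0.168 and 0.144) in the same order. On log2(TPM + 1) both were below 0, at -0.11 and -0.10, and Cox6b1 was at 0.12 (adjusted p = 0.0831). With the offsets Cox6b1 came to 0.08 (adjusted p = 0.154).

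Of the 12 assembly factors of complex IV, 5 were higher and 3 were lower, not far from the 32.1% and 32.2% of all genes tested. Of 3 factors for heme A, Surf1 and Cox15 were higher and Cox10 did not pass. Of 6 factors that deliver copper or help those that do, Cox17 was higher, Sco2 and Cox16 were lower, and Sco1, Cox11 and Cox19 did not pass. Of 3 factors for the synthesis and insertion of the mitochondrially encoded core, Cox18 and Cox14 were higher and Cox20 was lower.

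Cox18 (chr5:90214724-90224595), which inserts a core subunit into the inner membrane, gave 19.7 and 20.1 FPKM with DMSO and 29.0 and 26.7 with risperidone (0.58 ± 0.07, adjusted p = 2.36e-05). Surf1, which acts with heme A and is mutated in Leigh syndrome, gave 33.5 and 34.2 FPKM against 49.6 and 40.2 (0.50 ± 0.09, adjusted p = 0.000624). Cox17, the chaperone that hands copper to the others, gave 57.6 and 53.5 FPKM against 77.4 and 60.4 (0.43 ± 0.11, adjusted p = 0.00607). For all 3 risperidone replicate 1 was the highest library, and without it the values were 0.52, 0.33 and 0.26 and still passed.

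Cox14, which guards a newly made core subunit, rose by 0.32 and came to 0.20 without risperidone replicate 1. Cox15, which makes heme A, rose by 0.19. Its counts were not whole, and it overlaps Entpd7. Its call was lost without DMSO replicate 1 (0.16, adjusted p = 0.0885) and without risperidone replicate 1 (0.14, adjusted p = 0.107), and it was -0.04 on log2(TPM + 1). Cox17 and Cox14 also lost their calls with the offsets, at 0.09 and 0.12.

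The lower factors were Sco2, Cox16 and Cox20. Sco2 (Gene ID 100126824, chr15:89371630-89373891), a copper chaperone, gave 8.13 and 8.40 FPKM with DMSO and 5.21 and 4.89 with risperidone, and fell by 0.60 ± 0.16 on the log2 scale (adjusted p = 0.00599). Cox16 (chr12:81358852-81485137) gave 24.4 and 21.4 FPKM against 14.8 and 16.1, and fell by 0.44 ± 0.10 (adjusted p = 0.00322). Cox20 (chr1:178318095-178322693), a chaperone for a core subunit, gave 187 and 198 FPKM against 145 and 125, and fell by 0.40 ± 0.08 (adjusted p = 0.000936).

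All 3 share reads with other genes. Their counts were not whole, and in the RefSeq annotation Sco2 overlaps Ncaph2 and Tymp, Cox16 overlaps 5 genes (Gm20498, Gm4787, Adam4, Gm3695 and Hspe1-ps2), and Cox20 overlaps Hnrnpu. How the split of shared reads bears on these falls was not tested. The call of Cox16 was lost without DMSO replicate 1 (-0.38, adjusted p = 0.0599), and Cox19, at -0.14 with the main settings, passed as lower on log2(FPKM + 1) (-0.23, adjusted p = 0.0189), log2(FPKM + 0.1) (-0.24, adjusted p = 0.0185), log2(TPM + 1) (-0.38, adjusted p = 0.0011) and with the offsets (-0.34, adjusted p = 0.022). On log2(TPM + 1), where the median of all genes was -0.22, Cox11 (-0.40, adjusted p = 0.0344) and Cox10 (-0.28, adjusted p = 0.0373) also passed as lower. Cox11 had -0.44 without risperidone replicate 2, beside -0.22 with all libraries. The counts of Cox11 were not whole either, and it overlaps Tom1l1.

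ATP synthase changed unevenly over its parts, and its catalytic core did not pass the test. Atp5b, the catalytic beta subunit, gave 555 and 558 FPKM with DMSO and 543 and 539.8 with risperidone (0.06 ± 0.05, adjusted p = 0.298). Atp5a1, the alpha subunit, gave 278 and 282 FPKM against 242 and 254 (-0.08 ± 0.05, adjusted p = 0.177). In FPKM both lay lower in each risperidone library. On log2(TPM + 1) both passed as lower, at -0.18 for Atp5b and -0.32 for Atp5a1 (adjusted p = 0.00618 and 0.00057). The median of all genes on that scale was -0.22, below the value of Atp5b. Atp5a1 also passed as lower without risperidone replicate 2 (-0.11, adjusted p = 0.043), and at -0.17 with library size alone and on both FPKM scales (adjusted p = 0.0101 to 0.0145). After quantile normalization both passed as lower, at -0.22 for Atp5a1 and -0.11 for Atp5b (adjusted p = 0.00419 and 0.0348).

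The 3 genes of the central stalk of the F1 head were called higher, of which Atp5e was not stable. Atp5d, the delta subunit, gave 183 FPKM in each DMSO library and 248 and 237 with risperidone (0.51 ± 0.05, adjusted p = 4.06e-06). Atp5c1, the gamma subunit that turns inside the head, gave 188 and 191 FPKM against 234 in each risperidone library (0.40 ± 0.04, adjusted p = 1.75e-05). Atp5e, the epsilon subunit, gave 14.9 and 20.6 FPKM against 24.7 and 25.5 (0.62 ± 0.19, adjusted p = 0.0151), and its DMSO libraries differed by 0.47 on the log2 scale, the largest replicate difference among the 50. It did not pass without DMSO replicate 1 (0.40, adjusted p = 0.184), with DESeq2 (adjusted p = 0.0501) or with the offsets (0.28, adjusted p = 0.214).

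The proton-driven c ring is built from identical copies of subunit c, which 3 genes encode with different presequences. Atp5g2 (Gene ID 67942, chr15:102662868-102671047) gave 322 and 340.0 FPKM with DMSO and 526 and 507 with risperidone (0.75 ± 0.05, adjusted p = 3.65e-07). Atp5g1 gave 85.6 and 87.5 FPKM against 81.6 and 82.8 (0.03 ± 0.06, adjusted p = 0.719), and Atp5g3 gave 255 and 275 against 235 and 275 (0.05 ± 0.07, adjusted p = 0.546). Thus 1 of the 3 genes rose.

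As shares of the family's FPKM, Atp5g2 held 48.5% and 48.4% with DMSO and 62.4% and 58.6% with risperidone. Atp5g3 held 38.5% and 39.2% against 27.9% and 31.8%, and Atp5g1 held 12.9% and 12.4% against 9.69% and 9.57%. None of the shares overlapped between treatments, with 2 libraries each. The shares of a family depend on each other, so they are not separate results. The family's summed FPKM was 663 and 703 with DMSO and 842 and 865 with risperidone. A share within a library does not depend on the scaling between libraries. Atp5g3 had 0.16 without risperidone replicate 1. On log2(TPM + 1), where the median of all genes was -0.22, Atp5g1 and Atp5g3 had -0.22 and -0.20 (adjusted p = 0.00435 and 0.0515). Atp5g1 passed as lower there and with the offsets (-0.16, adjusted p = 0.0435).

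**Figure D5:**
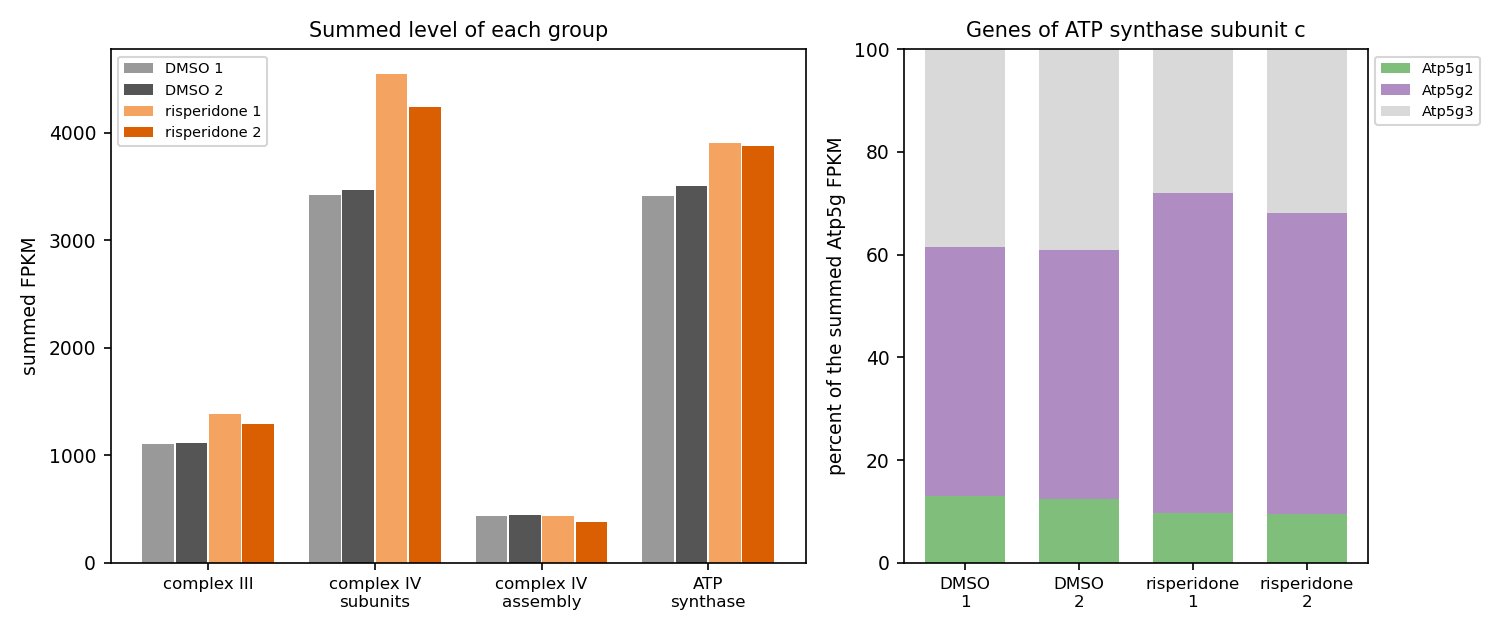
Left, summed FPKM of complex III, complex IV subunits, complex IV assembly factors and ATP synthase in each library, with DMSO in grey and risperidone in orange. Right, percent of the summed FPKM of Atp5g1, Atp5g2 and Atp5g3 held by each gene per library, where Atp5g2 takes 48.4% to 48.5% with DMSO and 58.6% to 62.4% with risperidone.

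The small membrane subunits of the Fo part were led by Atp5mpl (chr12:111961374-111967009), the 6.8PL proteolipid, with 179 and 181 FPKM against 268 and 271 (0.69 ± 0.06, adjusted p = 4.85e-06). Atp5l, subunit g, rose by 0.43 and Atp5j2, subunit f, by 0.21 on the log2 scale, and Atp5k, subunit e, had 0.08 and did not pass, but passed as lower with the offsets (-0.38, adjusted p = 0.0494). Atp5j2 overlapped between treatments, with 344 and 320.1 FPKM against 386 and 324. Its value was 0.16 without DMSO replicate 2 (adjusted p = 0.161), 0.08 without risperidone replicate 1 (adjusted p = 0.222) and 0.33 without risperidone replicate 2, and it was -0.10 with the offsets.

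The peripheral stalk holds the head still against the turning ring. Atp5f1, subunit b, rose by 0.19 and Atp5h, subunit d, by 0.21 on the log2 scale, while Atp5o and Atp5j, the oligomycin sensitivity protein and subunit F6, had 0.16 and -0.01 and did not pass. Atp5j passed as lower with the offsets (-0.27, adjusted p = 0.000943) and on log2(TPM + 1) (-0.23, adjusted p = 0.00319). On the latter scale the median of all genes was -0.22. Without DMSO replicate 1, Atp5f1 and Atp5h each had 0.15 (adjusted p = 0.0817 and 0.167), and on log2(TPM + 1) they had -0.05 and -0.04. Atp5o passed without risperidone replicate 1 (0.28, adjusted p = 0.00122). Atp5s, coupling factor B, rose by 0.49 and did not pass without DMSO replicate 1 (0.39, adjusted p = 0.109) or risperidone replicate 1 (0.29, adjusted p = 0.101). Without DMSO replicate 1, the median log2 fold change of the 17 ATP synthase genes was 0.15 in place of 0.21, beside -0.00075 for all genes.

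Summed over the group, complex IV subunits gave 3445 ± 29.9 FPKM with DMSO and 4396 ± 219.7 with risperidone (SD, n = 2), a ratio of 1.28. Complex III went from 1110 ± 11.2 to 1338 ± 65.1 (ratio 1.21) and ATP synthase from 3458 ± 62.8 to 3891 ± 21.8 (ratio 1.13), beside a ratio of 1.10 for the whole table. The assembly factors gave 433 and 448 FPKM with DMSO and 439.8 and 379.9 with risperidone (ratio 0.93) and overlapped between treatments. Of these sums, Cox20 alone held 187 and 198 FPKM with DMSO and 145 and 125 with risperidone. Its reads are shared with other genes, so the ratio is not a fall common to the assembly factors. In TPM, which fixes the sum of each library, the ratios were 1.15, 1.09, 1.02 and 0.84 for complex IV subunits, complex III, ATP synthase and the assembly factors.

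The genes that feed or build these complexes were counted as lists, to be read against the 32.1% higher and 32.2% lower of all genes tested. In complex I, which passes electrons from NADH into the chain, 20 of 36 tested genes were higher and 1 was lower, with a median of 0.21. Its largest changes were Ndufa6 (0.69) and Ndufb6 (0.51), accessory subunits, and the lower gene was Ndufb7 (-0.16). In complex II, succinate dehydrogenase, 5 of 8 were higher and 0 lower, among them the assembly factor Sdhaf3 (0.82) and the subunits Sdhb (0.36) and Sdhc (0.35). Of 6 assembly factors of complex III, 5 were higher and 0 lower, with Lyrm7 (0.62) and Bcs1l (0.44), which handle the Rieske protein, and Uqcc1 (0.46).

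Of 16 partners of complex IV outside the 53 genes, 4 were higher and 3 lower, both below the shares of all genes tested (32.1% and 32.2%). Tmem177, a partner of Cox20, fell by 0.82, Higd1a, a hypoxia-induced protein of the inner membrane, fell by 0.68, and Cmc1 rose by 0.56 on the log2 scale. Among assembly factors, carriers and other partners of ATP synthase, 3 of 9 were higher and 3 were lower, close to the shares of all genes. The higher genes were the ADP/ATP carrier Slc25a4 (0.38) and the partners Usmg5 (0.20) and Atpif1 (0.20). The lower ones included the ADP/ATP carrier Slc25a5 (-0.21) and the F1 assembly factor Atpaf1 (-0.35). Atpaf2, Tmem70 and Fmc1, also assembly factors, did not pass. Supply of heme and copper had 4 of 8 higher and 1 lower, beside the same shares of all genes. All higher genes serve heme, among them Cpox of its synthesis at 0.84 and Hccs, which attaches heme to cytochromes c and c1, at 0.47. Of the copper genes, Atox1 was lower (-0.16), and Slc31a1 (0.05) and Ccs (0.02) did not pass.

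Among regulators of mitochondrial gene expression, 3 of 10 tested genes were higher and 5 were lower, beside 32.1% and 32.2% of all genes. Pprc1, a coactivator, rose by 0.51, and Tfam and Tfb2m, which drive transcription of mitochondrial DNA, fell by 0.31 and 0.32 on the log2 scale. Polrmt, the mitochondrial RNA polymerase, rose by 0.20 (adjusted p = 0.0288), and Tfb1m did not pass (0.05). Nrf1, which encodes NRF-1, fell by 0.22 (adjusted p = 0.0106), and its FPKM overlapped between treatments. The genes of GABP moved in opposite directions. Gabpa fell by 0.14 (adjusted p = 0.0384) and Gabpb1 rose by 0.19 (adjusted p = 0.0401). Nrf1, Gabpa, Gabpb1, Polrmt and Tfb1m were named after their values were seen. The coactivators Ppargc1a and Ppargc1b had a mean under 1 FPKM and were not tested. The difference between these lists and the respiratory genes was not tested.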

How the data were processed

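Differentiated 3T3-L1 cells were sequenced as mRNA on MGISEQ-2000, in 2 libraries per treatment, each from 3 pooled cultures. The authors removed adaptor, poly-N and low-quality reads. Their processing notes name Bowtie2, RSEM, DESeq2 and GRCm38.p6, with no versions. The expected counts are as deposited by the authors, estimated per gene and not normalized. The FPKM values are as deposited, computed by the authors on the DC.TOM platform. TPM, also deposited by the authors, sum alike in every library. Averages deposited per treatment were not used, and every column with values per library was matched to a sample.

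After rounding, edgeR 4.0.16 under R 4.3.3 was applied to the 10243 genes whose mean reached 1 FPKM (TMM factors 0.963 to 1.03, quasi-likelihood F-test, two-sided, Benjamini-Hochberg over all genes tested, threshold 0.05). The biological coefficient of variation was 0.0468. Each SE was derived from the log2 fold change and its F statistic. Alternatives were limma 3.58.1 on log values, DESeq2 1.42.0, other scalings, other limits on low values, a term for the replicate number, offsets for length and GC content, and each library left out. Lengths came from the deposited counts and FPKM, GC content from GENCODE transcripts, and coordinates and overlaps from RefSeq on GRCm38.p6, matched by gene identifier. Scripts were tested on simulated data.

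Values per library are given for the 3 largest changes in each direction of each group with a mean of at least 5 FPKM, every lower gene, the isoform families, and the catalytic or core subunits. From other lists, up to 3 of the largest changes are named, and some genes were added after their values were seen. The genes and lists were chosen with earlier results of these data known. The 3T3-L1 cells are an established line. The limit that a count of 0 allows covers counting error only.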

Additional observations from a re-analysis of the deposited data

How the results depend on the processing

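The 50 genes had 31 higher and 4 lower, and the count of higher genes stayed within 1.5 times of this under every alternative but log2(TPM + 1). There, 16 of the 50 were higher and 12 lower (all genes, 15.0% and 51.7%). These were 3 and 1 in complex III and 5 and 1 among complex IV subunits. Assembly factors had 2 and 6, and ATP synthase had 6 and 4. With offsets for length and GC content 9 of the 50 were lower (all genes, 33.5% higher and 32.1% lower). In complex III 4 were then higher and 1 lower, 3 assembly factors were higher and 3 ATP synthase genes were lower. The ATP synthase genes called lower, 0 with the main settings, were 1 with library size alone, on log2(FPKM + 1) and on log2(FPKM + 0.1). Of all genes, 39.9%, 38.8% and 38.8% were lower there, in that order. After quantile normalization the ATP synthase genes called lower were 2 (all genes, 30.4% higher and 30.1% lower). With each library left out they were 0 to 1, and the ATP synthase genes called higher were 6 to 10, with 6 of 17 without DMSO replicate 1 (all genes, 26.0% higher and 26.6% lower). All genes had 26.2% and 26.6% without DMSO replicate 2, 30.1% and 30.6% without risperidone replicate 1, and 32.3% and 32.7% without risperidone replicate 2. The causes of these moves were not tested.

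The ratio of summed levels, risperidone to DMSO, was 1.07 in TPM for all 53 genes beside 1.19 in FPKM. In TPM it was 1.09 for complex III, 0.910 for cytochrome c, 1.15 for complex IV subunits and 1.02 for ATP synthase, and in library-scaled counts after TMM it was 1.30 for complex III, 1.07 for cytochrome c, 1.38 for complex IV subunits, 1.13 for ATP synthase and 1.07 for assembly factors, beside 1.07 for the whole table.

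With library size as the only scaling, 5 genes changed sign, Atp5b to -0.036, Atp5g1 to -0.066, Atp5g3 to -0.043, Atp5k to -0.016 and Uqcr11 to -0.0014. After quantile normalization, 10 genes changed sign, Atp5b to -0.11, Atp5g1 to -0.10, Atp5g3 to -0.10, Atp5j2 to -0.0072, Atp5k to -0.086, Atp5o to -0.0065, Cox10 to 0.034, Cox6c to -0.066, Sco1 to 0.024 and Uqcr11 to -0.078. On log2(FPKM + 0.1), 5 genes changed sign, Atp5b to -0.040, Atp5g1 to -0.074, Atp5g3 to -0.059, Atp5k to -0.068 and Uqcr11 to -0.021. On log2(FPKM + 1), 5 genes changed sign, Atp5b to -0.040, Atp5g1 to -0.073, Atp5g3 to -0.059, Atp5k to -0.067 and Uqcr11 to -0.021. On log2(TPM + 1), 16 genes changed sign, Atp5b to -0.18, Atp5f1 to -0.052, Atp5g1 to -0.22, Atp5g3 to -0.20, Atp5h to -0.044, Atp5j2 to -0.050, Atp5k to -0.21, Atp5o to -0.10, Cox15 to -0.044, Cox6c to -0.11, Cox7a2 to -0.059, Cox7b to -0.10, Cycs to -0.14, Uqcr11 to -0.16, Uqcrc1 to -0.062 and Uqcrq to -0.13. With offsets for length and GC content, 9 genes changed sign, Atp5g1 to -0.16, Atp5g3 to -0.15, Atp5h to -0.042, Atp5j2 to -0.10, Atp5k to -0.38, Atp5o to -0.029, Cox6c to -0.14, Cox7a2 to -0.0080 and Uqcr11 to -0.24. With a library left out, the sign changed for Atp5g3 from -0.066 to 0.16, Atp5j from -0.059 to 0.041, Atp5k from -0.12 to 0.25, Cox10 from -0.15 to 0.028 and Sco1 from -0.25 to 0.025. Many of these values were near 0 under each setting.

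A replicate block gave 33 higher and 4 lower genes (all genes, 32.1% and 32.4%), since Atp5o and Cox7a2 passed. The numbers were not shown to pair the samples, as the deviations of DMSO replicate 1 and risperidone replicate 1 from their treatment means had r = -0.10 across 9221 genes. A crossed block, chosen after seeing the data, also gave 33 and 4 (all genes, 33.9% and 34.4%). Libraries of this depth leave 3 of the 53 genes, at 0 to 6 counts, without a usable value.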
